A study of Homo sapiens with 8 samples.

Results

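The BCL2 family holds the proteins that decide whether the outer mitochondrial membrane is opened during apoptosis. The 10 members described here were taken by gene symbol from the 31412 named rows of the deposited signal table, and each symbol had 1 row. They were 4 anti-apoptotic genes (BCL2, BCL2L1, MCL1 and BCL2A1) and 6 pro-apoptotic genes, of which 2 code for the pore-forming effectors (BAX and BAK1) and 4 for BH3-only proteins (BID, BBC3, PMAIP1 and BCL2L11). The rule that picks their rows uses the symbol and no measured value, but the members themselves were chosen with earlier results of these data known.

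The cells were MDA-MB-231, a human triple-negative breast cancer line, carrying a doxycycline-inducible estrogen receptor beta (ESR2). All 6 cultures were grown with 100 ng/ml doxycycline to switch the receptor on, and then received either ethanol vehicle (3 cultures) or 1 nM estradiol (3 cultures) for 5 days. Cells without doxycycline and the parental line were not analysed here, so the comparison is of estradiol against vehicle in cells that all express the receptor. The labels do not say whether the line is a single clone. Total RNA was read on 8 Illumina bead arrays, since vehicle culture 3 and estradiol culture 1 each had a repeat array from a second RNA sample. Nothing in the labels says how far the cultures of a treatment were grown apart, and p-values measure only the spread between them.

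In a healthy cell the anti-apoptotic proteins hold BAX, BAK1 and the BH3-only proteins in check. BH3-only proteins are made or activated under stress, bind the anti-apoptotic proteins in their groove, and so free the effectors to form pores that release cytochrome c, which starts the caspase cascade. MCL1 and PMAIP1 are short-lived proteins, and many members are also controlled after transcription, by phosphorylation, cleavage or degradation, none of which a transcript array measures.

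On each array 10172 to 11123 rows were detected (detection p under 0.01), and the median raw signal was 66.3 to 75.4. The log2 signals below are background-corrected and quantile-normalized, and the 2 arrays of a repeated culture were averaged before testing. ESR2 transcript was above detection on each of the 8 arrays, and its log2 change with estradiol was -1.17. The 7 markers of the line all passed the detection filter. EGFR did so only through the vehicle group, on 3 vehicle and 0 estradiol arrays. With estradiol 3 of the 7 were higher (VIM, KRT8 and MSN) and 1 was lower (EGFR, -0.41). Over all tested rows 13.6% were higher and 14.2% lower. ESR1 and PGR, which the line is known to lack, were detected on 0 arrays, and ERBB2, known to be low in it, on 1 array, in a combined row with a mean log2 signal of 7.81 with vehicle and 7.84 with estradiol. Of markers of leukocytes, endothelium and fibroblasts, PTPRC, PECAM1, VWF, CDH5, DCN and LUM were detected on 0 arrays, while CD14 was detected on 4. PDGFRB, detected on 8, was lower with estradiol (-0.48), and the other 3 fibroblast markers were detected on 0 arrays; its part in the results was not tested. The arrays lay on 2 chips: chip A held vehicle 1, the vehicle 3 repeat and estradiol 1, and chip B held vehicle 2, vehicle 3, estradiol 2, estradiol 3 and the estradiol 1 repeat. The share of arrays on chip A thus differed between the treatments, and values within each chip are given where they bear on a member.

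Of the 10 members, 7 were detected on at least 3 of the 8 arrays and were tested, and 3 (BCL2, BCL2A1 and BCL2L11) stayed below this. Among the 7 tested, BCL2L1, which codes for the anti-apoptotic protein Bcl-xL, and PMAIP1, which codes for the BH3-only protein NOXA, were higher with estradiol at an adjusted p under 0.05. No member was lower, and 5 did not pass (MCL1, BAX, BAK1, BID and BBC3). Over the 11191 rows in the test, 13.6% passed as higher and 14.2% as lower, 27.7% in either direction. With arrays centred on the median of all rows in place of quantile normalization, 2053 rows were higher and 540 lower, against 1518 and 1586. With 2 of 7 called, the members' share in either direction was near this background. By role, 1 of the 2 tested anti-apoptotic members was higher (median log2 change 0.353) and 1 of the 5 tested pro-apoptotic members was higher (median -0.0620). The median over all tested rows was -0.0232. By their listed roles, the 2 members that rose stand on opposite sides of the pathway. The BCL2L1 row cannot, however, tell Bcl-xL from its pro-apoptotic splice form.

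The promoters of the 2 members that rose are shown because they are the ones whose transcript level passed the test. Each window runs from 250 bases before the RefSeq transcription start to 50 bases after it, on the GRCh38.p14 build, read 5′ to 3′ on the gene's strand. BCL2L1 has 2 annotated starts (chr20:31723914-31724213 and chr20:31722819-31723118, minus strand) and PMAIP1 has 1 (chr18:59899746-59900045, plus strand). Capitals mark matches on either strand to the motifs listed after the sequences.
BCL2L1 start 1: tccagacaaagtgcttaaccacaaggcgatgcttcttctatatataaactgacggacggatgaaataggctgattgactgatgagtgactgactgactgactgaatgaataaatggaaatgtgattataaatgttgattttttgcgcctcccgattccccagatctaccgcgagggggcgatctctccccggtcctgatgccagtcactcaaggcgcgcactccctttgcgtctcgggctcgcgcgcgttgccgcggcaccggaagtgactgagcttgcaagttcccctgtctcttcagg
BCL2L1 start 2: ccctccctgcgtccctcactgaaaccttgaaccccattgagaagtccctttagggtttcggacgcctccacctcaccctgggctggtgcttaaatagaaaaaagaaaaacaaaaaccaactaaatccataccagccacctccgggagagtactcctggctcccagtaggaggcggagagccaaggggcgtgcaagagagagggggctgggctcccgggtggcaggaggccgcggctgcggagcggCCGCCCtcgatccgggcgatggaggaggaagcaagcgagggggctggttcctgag
PMAIP1: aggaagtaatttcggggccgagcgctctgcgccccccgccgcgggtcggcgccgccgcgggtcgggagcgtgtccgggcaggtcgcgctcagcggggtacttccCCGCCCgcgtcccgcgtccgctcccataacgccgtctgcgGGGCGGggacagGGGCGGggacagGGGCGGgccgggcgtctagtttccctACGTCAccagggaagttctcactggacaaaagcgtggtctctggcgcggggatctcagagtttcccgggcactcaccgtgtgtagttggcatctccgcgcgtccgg
The motifs searched were the estrogen response half-site GGTCA, the full palindromic element (GGTCA, any 3 bases, then TGACC), the half-site of the cAMP response element TGACGT, the E-box CACGTG, the AP-1 motif TGANTCA, an NF-kB motif GGGNNTTCC and the GC box GGGCGG, which Sp1 binds. A full estrogen response element contains 2 half-sites, so those matches overlap by construction. In the PMAIP1 window 4 GC boxes lay between -146 and -82, and 1 cAMP half-site, read as ACGTCA, began at -56, counting the first base before the start as -1. The GC box is common, present in 45.0% of the 35116 RefSeq promoter windows, and the cAMP half-site in 7.98%. The first BCL2L1 window held no match and the second held 1 GC box, beginning at -5.

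RefSeq windows were matched for 9 of the 10 members, all but MCL1, with 14 windows between them. None of these held the full estrogen response element, which was present in 0.057% of all windows. The half-site, present in 37.4% of all windows, was found in BAX, with 3 matches, and in BID. The E-box, present in 7.26%, was found in BAX, with 4 matches, and in BID and BBC3. BBC3 also held the AP-1 motif (7.71% of all windows), at -113, and BID the NF-kB motif (6.58%). GC boxes were found in 6 members. The percentages are shares of windows, while members are counted by gene over all their windows. BID has 5 windows, some of which overlap, so the member counts cannot be set directly against the percentages. A match describes letters and not binding, and a window without one says nothing of the factor.

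**Figure D1:**
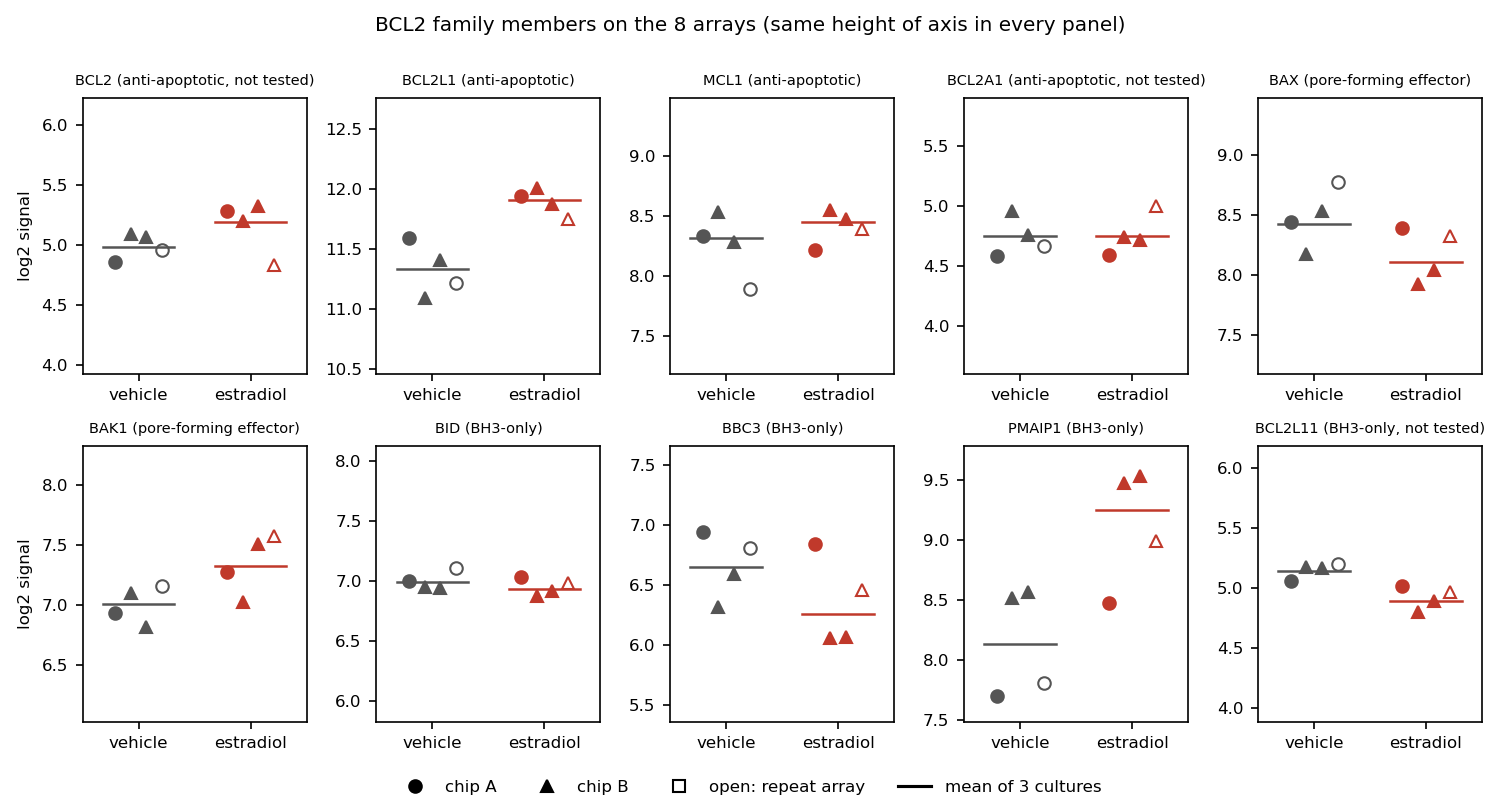
Log2 signal (y axis) of each of the 10 members on the 4 vehicle and 4 estradiol arrays (x axis). Circles are chip A, triangles chip B, open symbols repeat arrays, and each line is the mean of 3 cultures; the axis spans the same height in every panel, and BCL2L1 is the tested member whose estradiol arrays all lie above its vehicle arrays.

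BCL2L1 was the anti-apoptotic member that rose. Its log2 signal in vehicle cultures was 11.59 for culture 1, 11.09 for culture 2 and 11.41 for culture 3, and 11.22 on the repeat array of culture 3. With estradiol it was 11.95, 12.01 and 11.88 for cultures 1, 2 and 3, and 11.75 on the repeat array of culture 1. The lowest estradiol array thus lay above the highest vehicle array, and the groups did not overlap. The culture means were 11.33 ± 0.251 (SD, n = 3) with vehicle and 11.91 ± 0.0877 with estradiol. The log2 change was 0.58 with an SE of 0.137 and a 95% interval of 0.276 to 0.881, a 1.49-fold higher signal, with an adjusted p of 0.0101 in limma. A larger change in either direction was seen in 13.7% of all tested rows, and 56.7% of the rows that rose did so by more. The rise was seen on each chip, 0.54 within chip A and 0.63 within chip B, and with the chip as a block it was 0.60 (limma adjusted p = 0.00515). The row combines several probes, and which transcript forms they read was not analysed here, so Bcl-xL and its shorter pro-apoptotic splice form Bcl-xS cannot be told apart. Nor can a change in every cell be told from a change in part of the cells of a culture, for this or any other row.

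MCL1 codes for an anti-apoptotic protein on which many breast cancer cells are known to depend. The vehicle arrays gave 8.33, 8.53 and 8.28 for cultures 1 to 3 and 7.89 for the repeat of culture 3. The estradiol arrays gave 8.22, 8.55 and 8.48, and 8.40 for the repeat of culture 1. The groups overlapped, and 3 of the 4 vehicle arrays lay within the range of the estradiol arrays. The log2 change was 0.13, with a 95% interval of -0.170 to 0.426 (limma adjusted p = 0.510). The interval allows a small change in either direction.

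BCL2, the family's founding anti-apoptotic gene, was close to background. The log2 signal with vehicle was 4.86, 5.09 and 5.07 for cultures 1 to 3 and 4.97 for the repeat of culture 3, and none of the 4 arrays detected it. With estradiol it was 5.28, 5.20 and 5.33 for cultures 1 to 3 and 4.84 for the repeat of culture 1. It was detected on 2 of the 4 estradiol arrays, cultures 1 and 3, while the repeat array of culture 1 gave the lowest value of all 8. The groups overlapped, and the difference in means of 0.21 was not tested because of the detection filter. Without that filter the limma adjusted p was 0.289. BCL2A1, an anti-apoptotic gene known best from blood cells, was detected on 0 of 8 arrays, with log2 signals of 4.58 to 4.96 with vehicle and 4.59 to 5.00 with estradiol. For BCL2 and BCL2A1 no fold is given, because the vehicle signal is not well above background.

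The effectors BAX and BAK1, whose proteins form the pores, had measured changes of opposite sign, and neither passed the test. BAX gave 8.44, 8.18 and 8.54 with vehicle for cultures 1 to 3 and 8.78 for the repeat of culture 3. With estradiol it gave 7.92 and 8.04 for cultures 2 and 3, and 8.40 and 8.33 for the arrays of culture 1. The groups overlapped at vehicle culture 2. The log2 change was -0.32, with a 95% interval of -0.656 to 0.0242 (limma adjusted p = 0.154). The BAX row combines several probes and met the detection threshold on 5 of the 8 arrays, 3 with vehicle and 2 with estradiol.

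BAK1 was measured by 1 probe and detected on all 8 arrays. The vehicle arrays gave 6.94, 7.10 and 6.82 for cultures 1 to 3 and 7.16 for the repeat of culture 3. The estradiol arrays gave 7.28, 7.03 and 7.51 for cultures 1 to 3 and 7.58 for the repeat of culture 1. All estradiol arrays but that of culture 2 lay above every vehicle array. The log2 change was 0.31 with a 95% interval of 0.00834 to 0.618 and an unadjusted limma p of 0.0450, which became 0.117 after adjustment over all tested rows. Without estradiol culture 2 the change was 0.46 and passed (limma adjusted p = 0.0335). It was 0.23 within chip A and 0.41 within chip B.

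PMAIP1, the BH3-only gene known to be induced under cellular stress, had the largest measured change among the 7 tested members. On chip A the vehicle arrays gave 7.71 for culture 1 and 7.81 for the repeat of culture 3, and the estradiol array of culture 1 gave 8.48. On chip B the vehicle arrays gave 8.52 for culture 2 and 8.57 for culture 3. The estradiol arrays there gave 9.48 for culture 2, 9.53 for culture 3 and 8.998 for the repeat of culture 1. Within each chip every estradiol array lay above every vehicle array, but across chips the estradiol 1 array on chip A lay just under the chip B vehicle arrays. Over culture means the groups did not overlap, at 8.14 ± 0.410 with vehicle and 9.25 ± 0.443 with estradiol (SD, n = 3 each). Of all tested rows, 42.8% also had no overlap between the 3 and 3 cultures, as did 2 of the 7 tested members, PMAIP1 and BCL2L1.

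The PMAIP1 log2 change over the 6 cultures was 1.11 with an SE of 0.237 and a 95% interval of 0.587 to 1.63, a 2.16-fold higher signal (limma adjusted p = 0.00588). By this estimate, made without a chip term, 3.14% of all tested rows changed by a larger size. Of the rows that rose, 16.7% did so by more. The size moved with the chip. PMAIP1 read lower on chip A than on chip B, by -0.82 (SE 0.137, limma adjusted p = 0.0252), a call made for 1.22% of all tested rows. With the chip as a block over the 8 arrays the change was 0.77 (SE 0.132, limma adjusted p = 0.00143), where 28.3% of all rows were called and BCL2L1 and PMAIP1 were again the called members. That fit counts the repeat arrays of 2 cultures as separate samples. Over the 6 cultures, with the share of arrays on chip A as a covariate, the change was 0.78 (SE 0.126, limma adjusted p = 0.00176). It was 0.72 within chip A, whose 1 estradiol array was assumed to vary like its vehicle arrays, and 0.79 within chip B (limma adjusted p = 0.00909), where BCL2L1 and PMAIP1 were the called members and 21.9% of all rows were called. The 2 arrays of vehicle culture 3, one on each chip, differed by -0.76, a larger size than for 92.7% of tested rows, and those of estradiol culture 1 by 0.52. What made the 2 chips differ was not tested. PMAIP1 did not pass when the background was inferred from all rows (0.61, limma adjusted p = 0.0754).

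BBC3 codes for PUMA, another BH3-only protein known to be made under cellular stress. It gave 6.94, 6.31 and 6.59 with vehicle for cultures 1 to 3 and 6.80 for the repeat of culture 3. With estradiol it gave 6.84 for culture 1, 6.06 for culture 2, 6.06 for culture 3 and 6.45 for the repeat of culture 1. The groups overlapped, and in both groups the highest arrays were those on chip A. The log2 change was -0.40 with a 95% interval of -0.821 to 0.0301 (limma adjusted p = 0.154). With the chip as a block it was -0.18 (limma adjusted p = 0.337), -0.04 within chip A and -0.26 within chip B. BBC3 read higher on chip A by 0.52, which did not pass (limma adjusted p = 0.0997). Without estradiol culture 1 the change was -0.59 (limma adjusted p = 0.0434) and without vehicle culture 2 it was -0.56 (limma adjusted p = 0.0448), each of which passed.

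BID, whose product links death receptors to the mitochondria once cleaved by caspase 8, had the smallest measured change of the tested members. Its 4 vehicle arrays lay between 6.94 and 7.10 and its 4 estradiol arrays between 6.87 and 7.03, so the groups overlapped. The log2 change was -0.06, with a 95% interval of -0.289 to 0.165 (limma adjusted p = 0.687). BCL2L11 codes for BIM, a BH3-only protein that can bind all the anti-apoptotic members. Its vehicle arrays gave 5.06, 5.17, 5.16 and 5.20 and its estradiol arrays 5.01, 4.80, 4.89 and 4.97, each in the order of cultures 1 to 3 and then the repeat. The groups did not overlap, yet the row was detected on 1 of the 8 arrays, vehicle culture 2. The difference of -0.24 was not tested, since the signal is near background in both groups, and no fold is given. Without the detection filter the limma adjusted p was 0.110.

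**Figure D2:**
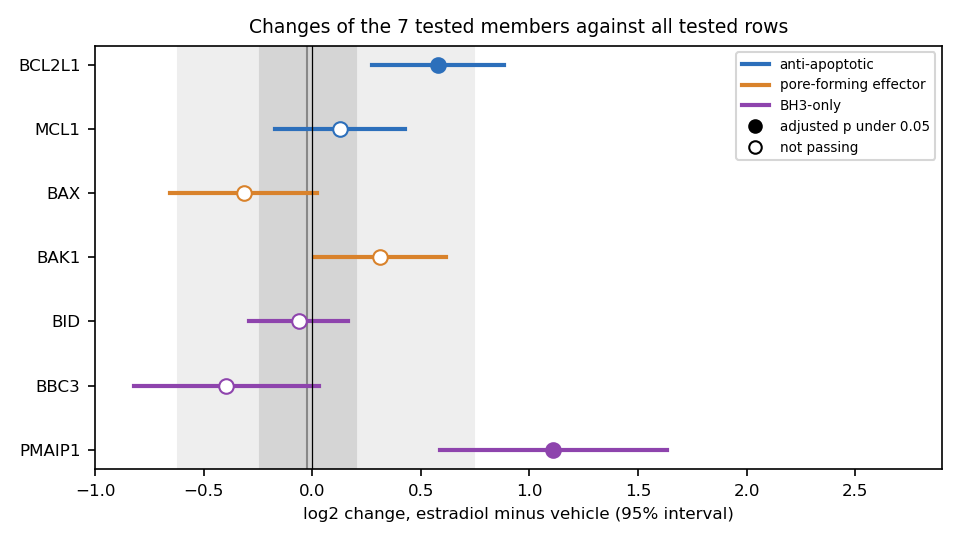
Log2 change (x axis, estradiol minus vehicle, over 3 and 3 cultures) of the 7 tested members (y axis) with 95% intervals as bars; filled points have an adjusted p under 0.05. The dark band holds the middle of all tested rows, from the 25th to the 75th percentile (-0.238 to 0.203), and the light band runs from the 5th to the 95th (-0.620 to 0.744). PMAIP1 is the member whose estimate, made without a chip term, lies outside both. With the chip as a block it was 0.77, and within chip A 0.72. The bands come from the fit without a chip term, so these values cannot be placed against them.

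**Figure D3:**
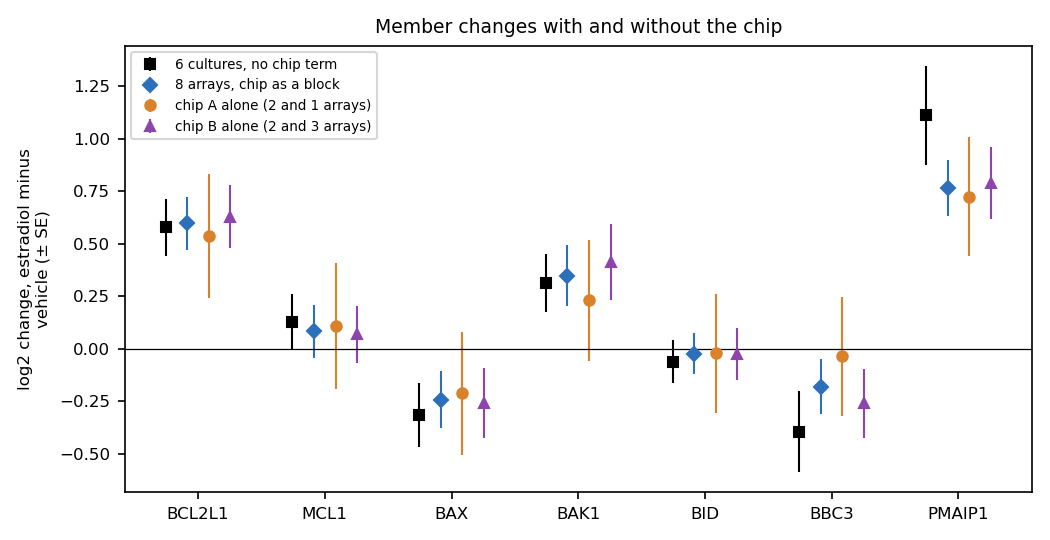
Log2 change (y axis, estradiol minus vehicle, ± SE) of the 7 tested members (x axis) from the 6 cultures, from the 8 arrays with the chip as a block, and from each chip alone. PMAIP1 goes from 1.11 to 0.77 and BBC3 from -0.40 to -0.18 with the chip as a block, while BCL2L1 stays near 0.6 in all 4 estimates.

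The rows most like PMAIP1 over the 6 culture means were F3, which codes for tissue factor (Pearson r = 0.994), WDR26 (r = 0.993) and C4orf41 (r = 0.993), and 154 tested rows had an r over 0.95. These r values are a description over 6 points that share their treatment groups and chips.

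Outside the 10, 15 further genes were listed with the family, the BNIP genes among them, though not all of these are members in the strict sense. Of the 15, 10 were tested: 2 were higher, 2 lower and 6 did not pass, with a median change of -0.0585. Over all tested rows 13.6% were higher and 14.2% lower. BOK, a BAX-like effector, rose by 1.42, from a mean of 7.80 with vehicle to 9.22 with estradiol (limma adjusted p = 1.88e-05), with no overlap between arrays. BIK, a BH3-only gene whose protein acts at the endoplasmic reticulum, rose by 1.14 (limma adjusted p = 0.00172) and was detected on 2 of 4 vehicle and 4 of 4 estradiol arrays. BOK passed in all 26 alternative settings and BIK in the 25 that tested it. BIK, however, met the detection filter only through the estradiol arrays, the group where it was higher. Its call therefore supports nothing on its own. The size of the BIK change depended on the background step, at 0.59 without correction, 0.74 with an offset of 50, 0.58 in the authors' normalized values and 0.08 when all rows were used to infer the background. That last setting gave 0.66 for BOK. BCL2L12 changed by -0.45 (limma adjusted p = 0.0187) and BNIP1, a vesicle fusion protein gene with a BH3-like motif, by -0.58 (limma adjusted p = 0.00397). The BNIP1 change was -0.12 when all rows were used to infer the background. Neither passed with arrays centred on the median of all rows (limma adjusted p = 0.202 and 0.102), and BCL2L12 did not pass without estradiol culture 2, estradiol culture 3 or vehicle culture 3 (log2 changes of -0.45 to -0.39, limma adjusted p from 0.0666 to 0.0829). The 6 that did not pass were BCL2L2, the gene of the anti-apoptotic protein Bcl-w, at -0.20, BNIP2 at -0.39, BNIP3 at -0.13, BCL2L13 at 0.02, BNIP3L at 0.02 and the BH3-only gene BAD at 0.07. BCL2L10, BCL2L14, BCL2L15, BMF and HRK were detected on 0 arrays.

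Downstream of the mitochondria, 9 of 12 listed genes of the apoptosome, the caspases and their targets were tested: 0 were higher, 1 was lower and 8 did not pass, with a median of -0.160, where 27.7% of all tested rows were called in either direction. The lower one was CASP9, the initiator caspase of the apoptosome, at a log2 difference of -0.38 (limma adjusted p = 0.0280). Its row combines probes and met the detection threshold on 3 vehicle and 0 estradiol arrays, so it passed the filter only through the group where it was higher, and the call supports nothing on its own. The difference did not pass with arrays centred on the median of all rows (-0.19), without background correction (-0.20) or in the authors' normalized values (-0.20). It did not pass with the chip as a block over 8 arrays (-0.30, limma adjusted p = 0.0906) and passed with the chip as a covariate over 6 cultures (-0.35, limma adjusted p = 0.0417). CASP9 passed in 13 of 25 and was lost without estradiol culture 2, estradiol culture 3 or vehicle culture 3 (log2 changes of -0.43 to -0.30, limma adjusted p from 0.0549 to 0.127). CYCS, the cytochrome c gene, was at -0.39 (limma adjusted p = 0.0544), CASP6 at 0.40 (limma adjusted p = 0.144) and AIFM1, the gene of apoptosis-inducing factor, at -0.19 (limma adjusted p = 0.209), and none of the 3 passed. CYCS was detected on 4 vehicle and 2 estradiol arrays, with mean log2 signals of 5.66 and 5.27, near background. It met the filter only through the vehicle group, where it was higher.

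Of 10 listed inhibitors of apoptosis and their antagonists, 7 were tested, 1 was higher, 1 lower and 5 did not pass, with a median of 0.0784. This share was near the 27.7% of all tested rows called in either direction. The one that rose was BIRC3, the cIAP2 gene and a known NF-kB target, by 1.48 (limma adjusted p = 0.000625). The BIRC3 change was 0.74 within chip A, 1.57 within chip B and 1.28 with the chip as a block. Its SD between cultures was 0.0658 with vehicle and 0.538 with estradiol. The one that fell was BIRC5, the gene of survivin, which is made mainly in dividing cells, with a change of -1.01 (limma adjusted p = 0.000291). XAF1 at 0.22 and BIRC2 at 0.23 did not pass. Of 8 listed genes whose products bind or turn over members, 6 were tested and 1 was higher, where 13.6% of all tested rows were: HUWE1, a ubiquitin ligase known to act on MCL1, changed by 0.53 (limma adjusted p = 0.0147), a call lost without estradiol culture 1, estradiol culture 2 or vehicle culture 3 (log2 changes of 0.44 to 0.48, limma adjusted p from 0.0504 to 0.0745) and when all rows were used to infer the background (0.10, limma adjusted p = 0.0614). YWHAQ at 0.26, USP9X, a deubiquitinase of MCL1, at -0.07 and MOAP1, a BAX-binding protein gene, at 0.05 did not pass, and the list's median was 0.0462.

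Among 13 listed transcription factor genes known to act on members, 10 were tested: 1 was higher, 3 were lower and 6 did not pass, with a median of -0.0376. Over all tested rows 13.6% were higher and 14.2% lower. FOXO1, the gene of a forkhead factor known to act on BCL2L11, rose by 0.46 (limma adjusted p = 0.0184), a call lost without estradiol culture 2, estradiol culture 3 or vehicle culture 3 (log2 changes of 0.38 to 0.46, limma adjusted p from 0.0587 to 0.0915). It was detected on 2 of 4 vehicle and 4 of 4 estradiol arrays. FOXO1 thus met the detection filter only through the group where it was higher, and the call supports nothing on its own. The change did not pass without background correction (0.21, limma adjusted p = 0.0668), in the authors' normalized values (0.16, limma adjusted p = 0.138) or when all rows were used to infer the background (0.02, limma adjusted p = 0.162). DDIT3, the CHOP gene of the endoplasmic reticulum stress response, known to act on BCL2 and BCL2L11, changed by -2.14, from 9.58 to 7.44 (limma adjusted p = 7.18e-07), and by -1.06 in the same background setting. NFKB1, a subunit gene of the NF-kB factor that is known to act on BCL2L1 and BCL2A1, changed by -0.61 (limma adjusted p = 0.00140), and MYC by -0.43 (limma adjusted p = 0.0103), which did not pass with arrays centred on the median of all rows (limma adjusted p = 0.210). The arrays measured transcripts, and the activity of these factors was not measured.

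**Figure D4:**
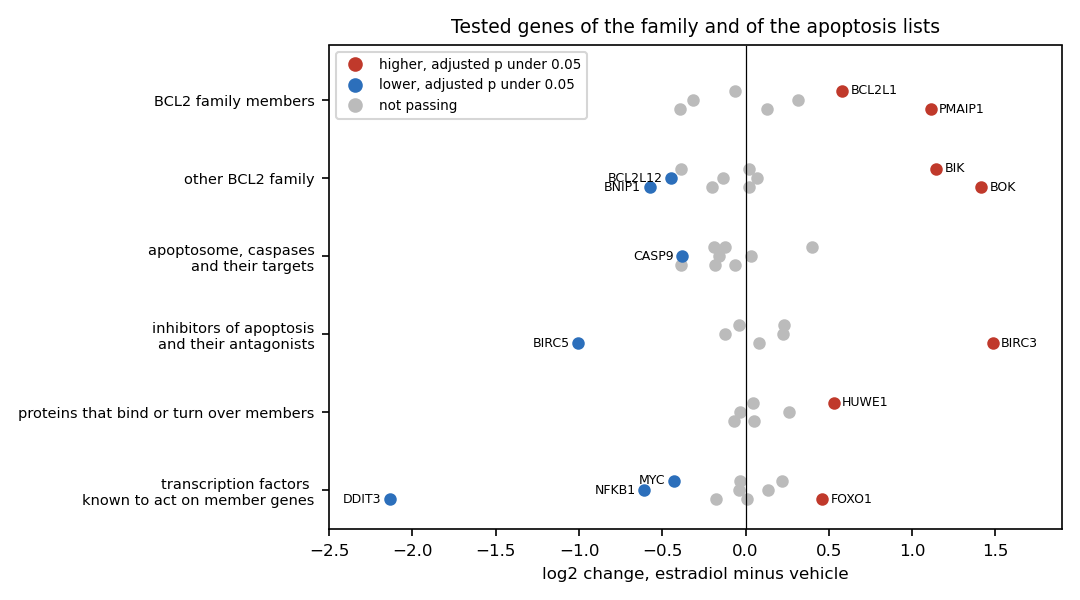
Log2 change (x axis, estradiol minus vehicle) of every tested gene of the members and of the 5 apoptosis lists (y axis; points are spread vertically within a list only for legibility). Red points were higher and blue points lower at an adjusted p under 0.05, with their names, and grey points did not pass; DDIT3 lies furthest left at -2.14 and BIRC3 furthest right at 1.48.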

How the data were processed

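Total RNA was hybridised as biotinylated cRNA to Illumina bead arrays, per the labels' protocols. The authors deposited a table with per row and array an intensity with its detection p-value, not normalized between arrays per the file headers, and a second table of intensity values they had normalized; the labels do not say how. Of 31412 named rows, 24130 had detection p-values in whole steps of 1 in 770 (tolerance 0.002) and were taken as single-probe rows; 3266 blank rows were left out. Among members, BCL2, BCL2L1, BAX, BID and BCL2L11 have combined rows.

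From the first table, normexp background correction used control means and SDs inferred from the detection p-values of single-probe rows, with an offset of 16, log2 and quantile normalization (R 4.3.3, limma 3.58.1). Arrays of a culture were averaged, by the sample titles; the series text names replicate 3 for both repeats, and that assignment was an alternative. The 11191 rows with detection p under 0.01 on at least 3 arrays were tested with lmFit and eBayes, with Benjamini-Hochberg adjustment over all of them at 0.05. The procedure was also run on simulated data with independent noise and no chip effect. That run cannot show how the unequal split of arrays over chips affects the fit. With 3 cultures a treatment, the number of arrays limits the precision. A chip is a slide as named in the labels' array positions.

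Replicate numbers recur in both treatments. Deviations of same-numbered cultures correlated at 0.134, 0.134 and -0.0330, so the numbers were not taken to pair cultures. Arrays of a culture correlated at -0.569 after fitting, so the chip-block fit took the 8 arrays as separate.

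The text names all members, every other gene listed with the family, up to 4 tested genes with the smallest p in each other list, ESR2 and the 3 rows most like the member with the smallest p. Members and lists were chosen with earlier results of these data known. Promoter windows are RefSeq's, GRCh38.p14. Some genes first listed are not reported here, and the counts of their lists leave them out.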

Additional observations from a re-analysis of the deposited data

How the results depend on the processing

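BCL2L1 and PMAIP1 were higher under each of the 26 alternatives, by 0.46 to 0.72 and 0.61 to 1.37. The replicate block, the other detection filters and the eBayes options leave the log2 changes as they were by construction. A kept direction in those settings was therefore fixed in advance. BCL2L1 passed in 25, all but chip A alone (limma adjusted p = 0.428), and PMAIP1 in 24, all but chip A alone (limma adjusted p = 0.226) and the background inferred from all rows. Of 185 member values, 172 kept direction and call, 3 lost a call, 9 gained one and 1 changed sign: BID went to 0.152 with arrays centred on the median of all rows, which moved the median of tested rows from -0.0232 to 0.143. BAK1 passed there at 0.54 (limma adjusted p = 0.0235). The number of members higher was 2, and 0 in chip A alone, 1 with the background from all rows, 3 with arrays centred on the median of all rows and 4 with array weights. The number lower was 0, and 2 with array weights, where MCL1, BAX, BAK1 and BBC3 passed. With the replicate block it was 1, BBC3 (limma adjusted p = 0.0370), and no other member call changed. That block rests on shared numbers, which partly follow the chips, since culture 2 of each treatment lay on chip B alone. Leaving out each culture in turn gave 2 to 3 higher and 0 to 1 lower. Of the other listed apoptosis genes, 5 were higher and 7 lower. Chip A alone gave 2 and 1, array weights 10 and 12, and centring on the median of all rows 7 and 3. The background from all rows and detection on all 8 arrays each gave 3 higher. Leaving out each culture gave 3 to 6 higher and 5 to 8 lower. Of 309 values of the 12 called list genes, 38 lost the call and 0 changed sign. These genes were picked by their call on the same arrays, so a kept sign is no independent support. Over all tested rows, 1518 were higher and 1586 lower. Chip A alone gave 281 and 129, array weights 3080 and 3426, centring on the median of all rows 2053 and 540, and centring on that of tested rows 1243 and 2049. Leaving out each culture gave 1035 to 1689 higher and 922 to 1698 lower. The chip covariate over cultures, leaving out the vehicle 3 repeat array and centring on tested rows were chosen after seeing the data, and changed no call of BCL2L1 or PMAIP1. The authors' normalized values gave 0.55 for BCL2L1 and 0.95 for PMAIP1. Signal near background limits what can be said of BCL2, BCL2A1 and BCL2L11. The causes of these changes were not tested.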
